A study of Mus musculus with 28 samples.

Results

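The 4 high fat diet groups of a mouse feeding study were pooled and set against the standard diet group. The values therefore describe the mean of the high fat groups relative to livers of mice on standard food. A mean can be carried by some of its groups, so it does not by itself show a difference shared by all of them. Samples were chosen by the diet named in their titles, and they make up all 28 livers of the series: 23 high fat livers and 5 standard diet livers. The HFD group (6 livers) was fed a high fat diet, the HQ group (5) the same diet with 0.4% quercetin, the HR group (6) with 0.4% resveratrol, and the HQR group (6) with 0.2% of each compound. The SD group (5) was fed standard food. All mice were male, of the strain given as C57/6J, entered the study at 7 weeks of age and ate their diet for 26 weeks, so that livers came from mice of 33 weeks. Each liver was hybridised to its own array, and each high fat group had equal weight in the mean. Of the 4 high fat groups, 3 also received quercetin, resveratrol or both, which are plant polyphenols, so the mean pools supplemented and unsupplemented feeding, and the fat content of the diets was not given in the sources used here.

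The liver stores surplus fatty acids as triglyceride in lipid droplets, whose surface proteins control their growth and breakdown. In fatty mouse liver the nuclear receptor PPARgamma, the master regulator of fat cells, is known to switch on genes that are otherwise typical of adipose tissue. Dietary fat and cholesterol also act through SREBP2, which drives cholesterol synthesis, and sex differences in mouse liver are set mainly by the pattern of growth hormone release.

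A level below is the log2 of a probe's processed intensity minus the log2 of the 75th percentile of its array, so that 0 means as bright as that percentile. Levels of different genes come from different probes and are not compared. The 75th percentile lay between 173 and 557 units in the high fat arrays, against 248 to 361 units in the SD arrays, and no spot was saturated. Slide 8 stood apart: its 3 arrays, from the fifth HFD, the sixth HR and the fourth HQR mouse, had 79.4% to 82.1% of probes well above background, against 59.4% to 74.3% on the other 8 slides. The summed level of 11 hepatocyte markers was 1183 to 2467 times the 75th percentile in high fat livers and 1626 to 2894 times in SD livers, so the labelled tissue showed its markers in both.

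In the mean of the high fat groups, genes of lipid droplet growth, the complement protease adipsin and a pair of female-typical cytochrome P450s were higher than in SD livers, and single genes such as Asns (asparagine synthetase) and Enho (adropin) were lower. Sqle (squalene epoxidase) was also lower, but its call was lost on leaving out any of 18 of the 28 arrays. Of 21862 genes tested with limma, 35 passed an adjusted p of 0.05, which is 0.160% of the genes: 19 were higher (0.0869%) and 16 were lower (0.0732%) in the high fat mean. The smallest difference among them was 0.68 on the log2 scale for rises and 0.84 in size for falls. In all 35 genes the difference from SD had the same sign in each of HFD, HQ, HR and HQR, and these 4 differences share the same SD livers. The 35 genes were selected on the mean of these 4 differences, which favours a shared sign, so the shared sign is not separate support. HFD had the largest of the 4 differences in 8 of the 19 rises, HQR in 6, HR in 3 and HQ in 2. Among the 16 falls it was largest in HFD in 8, in HQR in 5, in HR in 2 and in HQ in 1. How often each group has the largest difference over all genes was not counted, so these counts describe the 35 genes without a background to set them against. Without slide 8 the test gave 25 genes, of which 23 were among the 35. The 12 that did not pass were AK080781, Phlda1, Cabyr, Sqle, Srgap3, Cyp2c54, Lama3, Atg16l2, Fsd1l, Raet1e, Sytl1 and Zfp532, with adjusted p between 0.0506 and 0.0851.

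**Figure D1:**
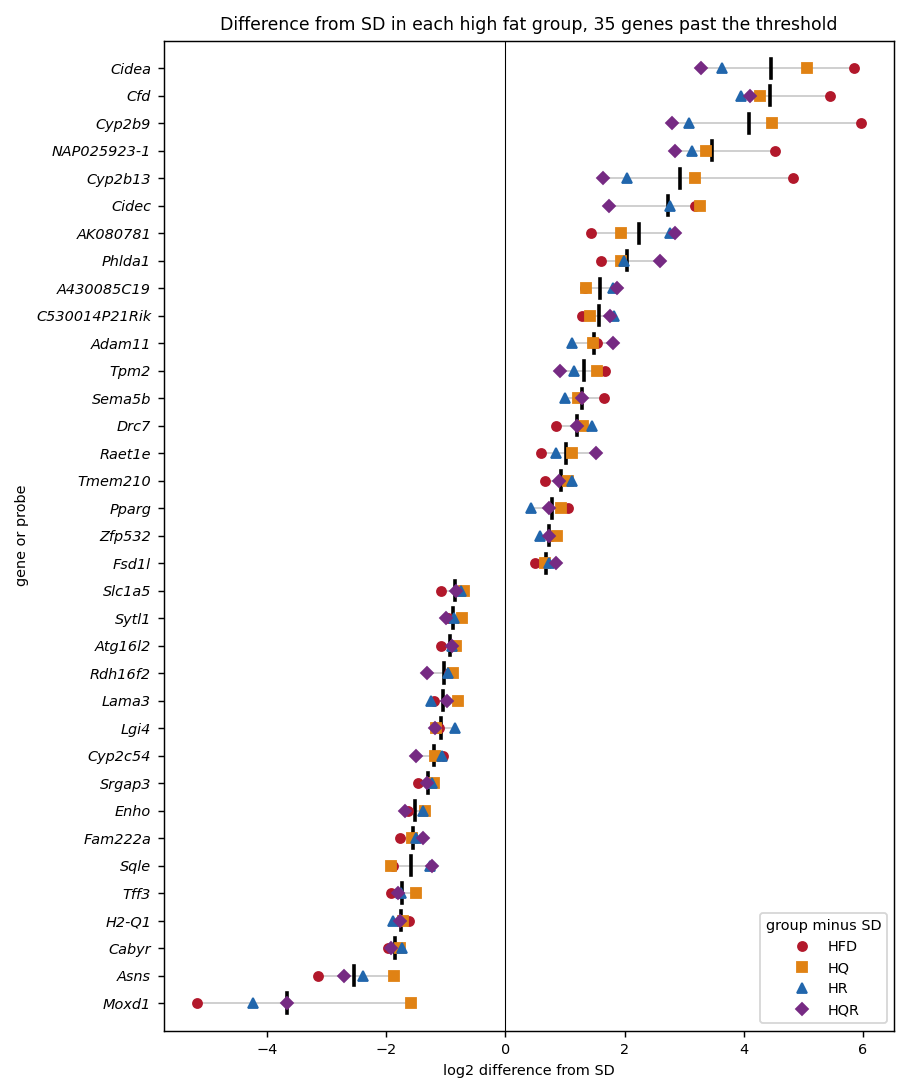
The log2 difference from SD (horizontal axis) in HFD (circles), HQ (squares), HR (triangles) and HQR (diamonds) for the 35 genes past the threshold, with a black bar at the mean of the 4 groups. All 19 rises lie right of 0 and all 16 falls left of 0 in every group, which selection on the mean of the 4 groups favours. Cidea, Cyp2b9, Cyp2b13 and Moxd1 have the widest spread between groups.

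Among 24 genes of lipid droplets and PPARgamma targets, Cidea, Cidec and Pparg rose and no gene fell past the threshold. The median difference of the 24 was 0.10, against -0.03 over all genes tested, and 15 of the 24 were above 0, against 9720 of 21862 over all genes. Cidea, a droplet protein best known from brown fat that promotes droplet fusion, had levels of -0.66 to 6.69 (median 3.54) in high fat livers, against -2.50, 0.57, 0.51, -2.42 and -1.49 in SD livers. In 22 of the 23 high fat livers it was above every SD liver, and it was 22.0-fold higher in the high fat mean (log2 difference 4.46 ± 0.66 SE, limma adjusted p = 0.000939). Cidec, known as Fsp27, which enlarges droplets by passing lipid between them (probe at chr6:113374693-113374752, minus strand, mm9), had levels of 1.15 to 4.94 (median 3.13) in high fat livers, against -2.10, 1.43, 2.18, 0.78 and -0.96 in SD livers. The groups overlapped for Cidec, since 19 of the 23 high fat livers were above every SD liver, and the difference was 2.74 ± 0.48 (adjusted p = 0.00713). Without SD replicate 5 the adjusted p of Cidec was 0.0562. Pparg, which encodes the receptor itself, moved by a smaller amount: its levels were 1.95 to 3.32 (median 2.65) in high fat livers, against 1.60, 2.13, 1.72, 2.26 and 1.77 in SD livers. Its difference was 0.79 ± 0.16 (1.73-fold, adjusted p = 0.0334), from 0.44 in HR to 1.05 in HFD. That call of Pparg did not hold when any one of 6 arrays was left out (SD replicates 1, 2, 3 or 5, HFD replicates 1 or 6), with an adjusted p of up to 0.120. Cd36, the fatty acid transporter and a PPARgamma target, differed by 1.19 ± 0.44 and did not pass (adjusted p = 0.432), with 17 of 23 high fat livers above every SD liver. Plin4, a perilipin, had a difference of 1.28 (adjusted p = 0.38) and Vldlr, the very low density lipoprotein receptor, one of 0.96 ± 0.23 (adjusted p = 0.0809).

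**Figure D2:**
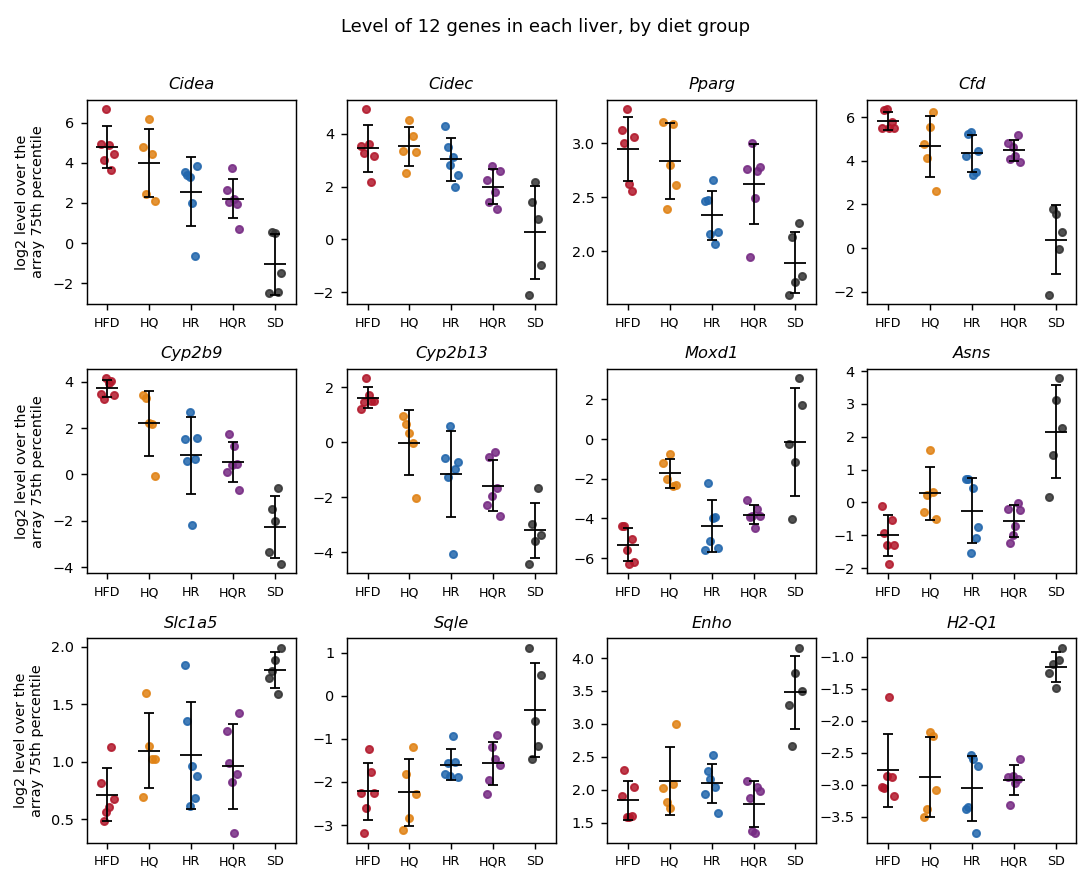
Level of 12 genes (vertical axes, log2 over the array's 75th percentile) in each liver of HFD, HQ, HR, HQR and SD, with a bar for the group mean and whiskers for 1 SD. Every high fat liver lies above every SD liver for Cfd and below every SD liver for H2-Q1, while the groups touch or overlap for the other 10 genes.

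The smallest p of all belonged to Cfd (probe at chr10:79355302-79355361, plus strand, mm9), which encodes adipsin or complement factor D, the serine protease that starts the alternative complement pathway and is made mainly by fat cells. Cfd had levels of 2.60 to 6.37 (median 4.82) in high fat livers, against -2.14, 1.78, 1.57, -0.05 and 0.74 in SD livers, with no overlap. It was 21.8-fold higher in the high fat mean, a difference of 4.45 ± 0.47 (adjusted p = 1.35e-05), with 5.45 in HFD, 4.28 in HQ, 3.96 in HR and 4.10 in HQR. A probe that the array files name NAP025923-1 and describe as unknown behaved alike. It lies at chr10:79354900-79355125 on the plus strand (mm9), ending 176 bases before the Cfd probe starts, and is given no gene name here. Its sequence is shown because the files pair it with no gene, so that the letters are what identifies the signal:
NAP025923-1: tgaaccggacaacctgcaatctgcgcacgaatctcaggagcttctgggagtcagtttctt
The level of NAP025923-1 was -0.31 to 3.50 (median 1.44) in high fat livers, against -3.95, -0.81, -0.86, -2.54 and -1.62 in SD livers, again without overlap (difference 3.47 ± 0.48, adjusted p = 0.000417). The other complement and coagulation genes did not share this: of 29 listed, Cfd alone passed, 26 were below 0 and the median was -0.21. Over all genes tested, 12142 of 21862 were below 0 and the median was -0.03.

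Cfd and Cidec are also fat cell markers, and the whole marker list was therefore read. Of 10 adipocyte markers tested, 2 rose (Cfd and Cidec) and none fell, 5 were above 0, and the median was -0.01. Among all 21862 genes tested, 19 rose, 16 fell, 9720 were above 0 and the median was -0.03. Adiponectin (Adipoq), a hormone of fat cells, averaged -3.51 in high fat livers and -2.82 in SD livers. Leptin (Lep), too dim to be tested, was well above background in 2 of 23 high fat livers and in 0 of 5 SD livers. The summed level of the 10 markers was 619 to 2157 (median 1124) in high fat livers and 541 to 1481 (median 908) in SD livers, in multiples of the 75th percentile. Nearly all of that sum was Car3, which averaged 10.11 in high fat livers and 9.88 in SD livers on the log2 scale. The sum therefore says little about the other markers or about fat cell content.

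Cyp2b9 and Cyp2b13, members of a P450 cluster on chromosome 7 that is normally expressed in female and repressed in male mouse liver, both rose in these male livers. Cyp2b9 (probe at chr7:26995607-26995666, plus strand, mm9) had levels of -2.17 to 4.15 (median 1.75) in high fat livers, against -3.33, -1.49, -2.01, -0.58 and -3.87 in SD livers. Of the high fat livers, 21 of 23 were above every SD liver, and the mean was 16.9-fold higher (difference 4.08 ± 0.56, adjusted p = 0.000417). Cyp2b13 had levels of -4.05 to 2.32 (median -0.35) in high fat livers, against -4.43, -2.96, -3.60, -1.68 and -3.36 in SD livers. That was a 7.59-fold higher mean (2.92 ± 0.50, adjusted p = 0.00654), with 18 of 23 high fat livers above every SD liver. For both genes 4 of 5 SD arrays were well above background, and both lie among near-identical copies, so part of either signal may come from another member of the cluster. The probe of Cyp2b13 is shown because the call of a near-identical family rests on these letters, which the array files place at chr7:26873757-26880713 on the plus strand (mm9), an interval longer than the probe:
Cyp2b13: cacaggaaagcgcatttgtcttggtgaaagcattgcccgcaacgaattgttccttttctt
A second probe of each gene ran the same way with smaller differences, 1.63 for Cyp2b9 and 1.83 for Cyp2b13. Both genes had their largest difference in HFD (5.97 for Cyp2b9 and 4.83 for Cyp2b13) and their smallest in HQR (2.80 and 1.63). With HFD left out of the mean, the difference of Cyp2b13 was 2.29 and did not pass (adjusted p = 0.068).

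Of 20 female-biased liver genes tested, these 2 rose, none fell, 16 were below 0 and the median was -0.21, against 12142 of 21862 below 0 and a median of -0.03 over all genes. Cux2, a female-specific repressor in mouse liver, had a difference of -1.21 ± 0.28 (adjusted p = 0.0683). Among 21 male-biased genes none rose and 1 fell, with a median of -0.11. That gene was Moxd1, a copper monooxygenase relative with male-predominant expression in mouse liver, at -6.30 to -0.74 (median -3.95) in high fat livers, against -0.26, -4.03, -1.16, 3.06 and 1.70 in SD livers. The SD livers themselves spread widely, and 10 of the 23 high fat livers were below all of them. The difference of Moxd1 was -3.67 ± 0.65 (adjusted p = 0.00749), with -1.59 in HQ. Its probe was well above background on 1 of 6 HFD, 5 of 5 HQ, 3 of 6 HR, 5 of 6 HQR and 5 of 5 SD arrays, so the size of the fall is limited by background in HFD and HR, and no fold is given. The call rested on single controls: the adjusted p was up to 0.0728 without SD replicate 4 or SD replicate 5. On slide 3, whose SD array had the lowest of the 5 levels, the 2 high fat arrays were higher by 0.74. Cish, which growth hormone signalling induces through STAT5, had a difference of 2.38 ± 0.81 (adjusted p = 0.350). Its level was above every SD liver in 18 of 23 high fat livers and below every SD liver in 3.

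Asns and Slc1a5 fell among 31 genes induced by the amino acid stress factor ATF4, and none rose. The median of the 31 was -0.28, and 23 were below 0, against a median of -0.03 and 12142 of 21862 below 0 over all genes. Asns, asparagine synthetase (probe at chr6:7625194-7625253, minus strand, mm9), had levels of -1.88 to 1.60 (median -0.50) in high fat livers, against 0.17, 1.43, 3.11, 3.78 and 2.27 in SD livers. Of the high fat livers, 17 of 23 were below every SD liver, and the mean was 5.80-fold lower (difference -2.54 ± 0.42, adjusted p = 0.00475). Slc1a5, the neutral amino acid transporter ASCT2, had levels of 0.38 to 1.84 (median 0.89) in high fat livers, against 1.73, 1.79, 1.89, 1.59 and 1.99 in SD livers. Its difference was -0.84 ± 0.17 (adjusted p = 0.0334), and the call of Slc1a5 did not hold without any one of the 5 SD arrays or HFD replicate 6 (adjusted p up to 0.113). Chac1, which breaks down glutathione and is a strong ATF4 target, differed the other way, by 1.30 ± 0.37 (adjusted p = 0.212). Trib3, a pseudokinase of the same response, differed by -0.73 ± 0.37 (adjusted p = 0.725). Fgf21, a fasting hormone of liver, differed by -1.40 ± 0.67 (adjusted p = 0.684).

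The 250 bases before the annotated start of these genes (RefSeq, GRCm38.p6) are shown because Asns and Chac1 match the same response element pattern while their differences had opposite signs. The matched letters of these genes are not identical, and the difference of Chac1 did not pass. Capitals mark TGATGNAA, the core of the amino acid response element, searched on both strands. Asns lies at chr6:7693210-7693459 on the minus strand, Chac1 at chr2:119350992-119351241 on the plus strand, and Trib3, with no match, at chr2:152344061-152344310 on the minus strand.
Asns: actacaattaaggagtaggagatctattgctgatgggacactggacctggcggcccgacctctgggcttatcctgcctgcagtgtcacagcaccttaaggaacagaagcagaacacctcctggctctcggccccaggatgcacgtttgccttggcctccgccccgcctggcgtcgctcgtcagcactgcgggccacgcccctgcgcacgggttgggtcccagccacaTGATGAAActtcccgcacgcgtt
Chac1: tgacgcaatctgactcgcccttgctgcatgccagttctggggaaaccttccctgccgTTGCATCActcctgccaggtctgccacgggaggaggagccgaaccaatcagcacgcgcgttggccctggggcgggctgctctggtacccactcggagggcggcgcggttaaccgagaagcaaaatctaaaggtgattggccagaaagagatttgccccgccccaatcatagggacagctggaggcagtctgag
Trib3: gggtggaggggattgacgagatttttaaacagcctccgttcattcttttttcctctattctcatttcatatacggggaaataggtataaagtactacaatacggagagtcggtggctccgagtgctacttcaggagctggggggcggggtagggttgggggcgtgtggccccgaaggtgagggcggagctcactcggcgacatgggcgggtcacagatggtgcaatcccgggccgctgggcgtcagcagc
The match begins 23 bases before the start of Asns, and 193 bases before that of Chac1 on the opposite strand. The pattern occurs in 3.45% of 32851 promoters of the same 250 bases, and in 22.6% of the 31 promoters of the ATF4 list. Counted by gene, these are 7 of 26 matched genes of that list: Aars, Asns, Chac1, Fgf21, Nupr1, Slc7a11 and Vldlr. Of these 7 genes only Asns passed the test.

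Sqle, squalene epoxidase, a rate-limiting enzyme of cholesterol synthesis, was the 1 gene of 24 for cholesterol synthesis and uptake to fall, and none rose. The probe lies at chr15:59162384-59162443 on the plus strand (mm9). Its levels were -3.19 to -0.91 (median -1.80) in high fat livers, against 1.11, -1.46, -0.58, -1.17 and 0.47 in SD livers, and 17 of 23 high fat livers were below every SD liver. The mean was 2.99-fold lower (difference -1.58 ± 0.33, adjusted p = 0.0435), and the adjusted p was 0.0163 to 0.174 when single arrays were left out, with the call lost for 18 of the 28 arrays. All 24 genes of the list were below 0, from -1.58 for Sqle to -0.05 for Stard4, with a median of -0.39, against -0.03 over all genes, where 12142 of 21862 were below 0. Dhcr7, the last enzyme of the pathway, differed by -0.88 ± 0.27 (adjusted p = 0.258) and Hsd17b7, a sterol reductase, by -0.76 ± 0.20 (adjusted p = 0.152). The members share these arrays and are not independent of each other.

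Bile acid genes lay low without a call. Of 25 genes of bile acid synthesis and transport none passed in either direction, 20 were below 0 and the median was -0.34. Over all genes 12142 of 21862 were below 0, with a median of -0.03. Cyp8b1, which makes cholic acid, had levels of -3.06 to -0.65 (median -1.81) in high fat livers, against -1.35, -0.12, 0.42, 0.01 and -1.01 in SD livers (difference -1.42 ± 0.31, adjusted p = 0.0534). Slco1a4, an organic anion uptake transporter, differed by -1.84 ± 0.41 (adjusted p = 0.0601), with 22 of 23 high fat livers below every SD liver. Cyp7a1, whose enzyme sets the rate at which bile acids are made, differed by -0.68 ± 0.48 (adjusted p = 0.938).

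**Figure D3:**
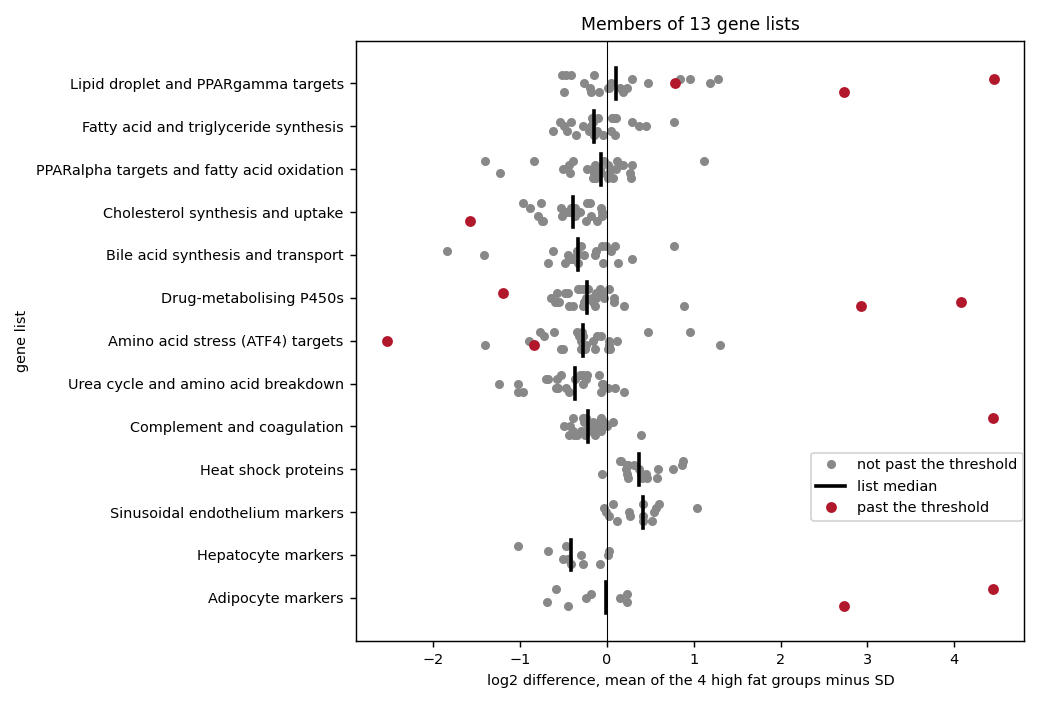
Difference of the high fat mean from SD (horizontal axis, log2) for the members of 13 gene lists, with red points for members past the threshold and a black bar at each list's median. The 24 cholesterol genes all lie below 0 and 18 of 19 heat shock genes above it, while single genes such as Cfd, Cidea and Asns lie far from the rest of their lists.

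Among genes of secreted and immune proteins, Enho, Tff3 and H2-Q1 fell. Enho, the precursor of the peptide adropin (probe at chr4:41585257-41585316, minus strand, mm9), had levels of 1.34 to 3.00 (median 1.99) in high fat livers, against 3.29, 2.67, 3.77, 4.16 and 3.51 in SD livers. In 22 of 23 high fat livers Enho was below every SD liver, and it was 2.86-fold lower in the mean (difference -1.51 ± 0.20, adjusted p = 0.000358), with group values between -1.35 and -1.69. It was the 1 gene of 25 hepatokines and liver-secreted factors to pass, against 35 of 21862 over all genes. Tff3, trefoil factor 3, a mucosal peptide also made in bile ducts, had levels of -3.35 to -1.41 (median -2.47) in high fat livers, against -0.82, -1.59, -0.42, -0.12 and 0.06 in SD livers (difference -1.74 ± 0.24, adjusted p = 0.000487). Tff3 is in the list of 12 bile duct cell markers, of which no other passed and whose median was -0.02, against -0.03 over all genes. Fewer cells of a type and less RNA per cell cannot be told apart in whole liver. H2-Q1, a class I gene of the Qa region of the mouse major histocompatibility complex, had levels of -3.76 to -1.63 (median -2.91) in high fat livers, against -1.25, -1.12, -1.50, -1.06 and -0.86 in SD livers, with no overlap. Its difference was -1.75 ± 0.23 (adjusted p = 0.000356) and nearly even across groups, from -1.61 in HFD to -1.90 in HR. None of the other 21 measured class I and class II genes passed, and the next lowest of them, H2-Q7, differed by -0.28. Class I genes of this region are close copies of each other, so the identity of the signal is uncertain. With normexp background correction the difference was -0.88 for H2-Q1 (adjusted p = 0.296) and -1.05 for Tff3 (adjusted p = 0.093), and neither passed.

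The remaining falls had mixed roles. Cabyr, a calcium-binding protein of sperm tails, differed by -1.86 ± 0.38 (adjusted p = 0.0334) and Fam222a by -1.56 ± 0.28 (adjusted p = 0.00873). Cyp2c54, a P450 of the 2c cluster, differed by -1.20 ± 0.24 (adjusted p = 0.0334), the 1 fall beside the 2 rises among 32 drug-metabolising P450s, whose median was -0.23. All 21862 genes tested had a median of -0.03, with 19 rises and 16 falls. Lgi4, a secreted glial protein, differed by -1.08 ± 0.21 (adjusted p = 0.0294), and Lama3, a laminin chain, by -1.05 ± 0.22 (adjusted p = 0.0447), with all 23 high fat livers below all 5 SD livers for Lama3. Srgap3 differed by -1.31 ± 0.28 (adjusted p = 0.0493). For 3 of these genes a second probe gave another value: 0.30 for Lama3, 0.01 for Srgap3 and -0.45 for Lgi4, all with a lower mean level than the probe used. Rdh16f2, Atg16l2 and Sytl1, which lay outside the rule for named genes and are named after their values were seen, fell by 1.03, 0.92 and 0.88.

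Phlda1, an intracellular signalling protein that many stimuli induce, led the remaining named rises. Its levels were 4.74 to 8.75 (median 7.87) in high fat livers, against 5.98, 5.44, 5.07, 5.38 and 5.98 in SD livers, and 21 of 23 high fat livers were above every SD liver. HR replicate 1, at 4.74, was below them all. The difference of Phlda1 was 2.03 ± 0.43 (adjusted p = 0.0435), and it did not pass when any one of 21 of the 28 arrays was left out (adjusted p up to 0.156). Adam11, a member of the ADAM family without protease activity, rose by 1.48 ± 0.23 (adjusted p = 0.00259), with levels of 3.31 to 5.26 (median 4.50) in high fat livers, against 3.46, 2.70, 2.11, 3.76 and 3.23 in SD livers. All 3 probes of Adam11 gave nearly the same difference, 1.45 to 1.58. Tpm2, beta-tropomyosin, rose by 1.32 ± 0.27 (adjusted p = 0.0334), and its second probe by 1.28. Named after their values were seen, Sema5b, Drc7, Raet1e, Tmem210, Zfp532 and Fsd1l rose by 1.29, 1.20, 1.02, 0.93, 0.74 and 0.68, though for Sema5b 2 further probes gave 0.20 and 0.15, and for Zfp532 another probe gave -0.09. The other 3 rises without a gene name were AK080781, A430085C19 and C530014P21Rik, at 2.24, 1.59 and 1.57.

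Genes of fat synthesis and fat burning that are often read in fatty liver did not differ past the threshold. None of 25 genes of fatty acid and triglyceride synthesis passed (median -0.15), nor did any of 30 PPARalpha targets and genes of fatty acid oxidation (median -0.07). With slide added to the fit as a block, 1 of these 30, Vnn1, passed upward and their median was 0.04, while none of the 25 passed. Srebf1, the lipogenic factor SREBP1, had a difference of 0.77 ± 0.48 (adjusted p = 0.854), with 0.74 to 1.23 in HFD, HQ and HQR and -0.07 in HR. The difference of fatty acid synthase (Fasn) was -0.18 ± 0.51, that of stearoyl-CoA desaturase (Scd1) 0.04 ± 0.45, and that of Cyp4a14, a PPARalpha target, 0.12 ± 0.54. The sign of the last 3 differences changed under other settings.

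Lists without any call still differed in where their members lay. Of 19 heat shock proteins 18 were above 0, with a median of 0.37, and Hsph1, a large co-chaperone, differed by 0.76 ± 0.37 (adjusted p = 0.684). Of 15 sinusoidal endothelium markers 13 were above 0, with a median of 0.42, and Lyve1, a hyaluronan receptor of these cells, differed by 1.04 ± 0.32 (adjusted p = 0.267) and by 0.21 on a second probe. Urea cycle and amino acid breakdown genes lay the other way, 22 of 25 below 0 with a median of -0.37, and 9 of 11 hepatocyte markers were below 0 with a median of -0.42. Over all genes 9720 of 21862 were above 0. The summed level of the endothelial markers was 29.1 to 102 (median 70.1) in high fat livers and 40.2 to 87.1 (median 64.8) in SD livers, so these ranges overlapped, and the part of cell composition in these medians was not tested. Cell cycle genes (23 tested), interferon response genes (29) and inflammatory cytokine and adhesion genes (27) gave no call in either direction.

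The high fat groups were also tested against each other, to see whether pooling hides differences between them. A limma F test over the 4 group means passed for 1 gene, Hao2, which is 0.00457% of the genes, and an unadjusted p under 0.05 was seen for 413 genes, fewer than the 1093 that chance gives. That count depended on the fit: it was 263 with scaling to the array median, 951 with slide as a fixed block and 1263 with array weights. On the slides that hold an SD array, with slide as a block, it was 1340. The low count in the main fit therefore does not show that the 4 groups agree. Hao2, a peroxisomal hydroxyacid oxidase (probe at chr3:98678664-98678723, minus strand, mm9), had levels of -4.03 to -2.37 (median -3.00) in HFD livers and of -6.19 to -4.28 in HQ, -6.48 to -5.11 in HR and -5.85 to -3.50 in HQR livers, against -6.31, -6.33, -6.25, -6.19 and -5.88 in SD livers (adjusted p of the F test = 0.00579). It was well above background on all 6 HFD arrays, on 1 HQR array and on none of the HQ, HR or SD arrays. Hao2 thus entered the test only through HFD, the group in which it was high, so that the test sets HFD against levels near background, and it was not among the genes left by the strict filter on dim probes. No fold is given, since most groups were not well above background. The high fat mean of Hao2 against SD did not pass (adjusted p = 0.0809), and without HFD replicate 4 the F test called no gene. Among the 19 rises, 9 had an unadjusted F test p under 0.05, as did 1 of the 16 falls, Moxd1. Of these 10 genes, Cyp2b13 (unadjusted p = 4.54e-05, adjusted p = 0.184) and Cyp2b9 (unadjusted p = 0.000146, adjusted p = 0.290) had the smallest p, and both were highest in HFD and lowest in HQR.

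A stricter question is which genes differed from SD in each of HFD, HQ, HR and HQR at once. Taking the largest of the 4 limma p-values per gene, 2 genes passed (0.00915% of the genes): Cfd (adjusted p = 0.00590) and H2-Q1 (adjusted p = 0.0432). Cfd passed under 41 of the 42 alternative settings run for this test and H2-Q1 under 12 of them, and without slide 8 neither did. By the levels alone, all 23 high fat livers were above all 5 SD livers for 3 probes (0.0137%), Cfd, NAP025923-1 and A430085C19. They were below all 5 for 5 genes (0.0229%), H2-Q1, Lama3, Rdh16f2, Baat and Cbx7. Baat, which joins bile acids to taurine or glycine, had levels of 4.63 to 5.56 (median 5.25) in high fat livers, against 5.99, 5.80, 5.78, 5.65 and 5.92 in SD livers, a difference of -0.62 ± 0.14 that did not pass (adjusted p = 0.0690). Cbx7, a Polycomb protein, had 0.01 to 1.06 (median 0.71) in high fat livers, against 1.82, 1.18, 1.09, 1.21 and 1.17 in SD livers (difference -0.65 ± 0.16, adjusted p = 0.0816).

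Arrays were spread over 9 slides, and each of the 5 SD arrays lay on a slide of its own together with high fat arrays, 13 in all. The diet groups of these high fat arrays differed between slides: slide 3 held HFD and HR, slide 5 HQ and HR, and slide 9 HFD and HQR. A difference within a slide is therefore not the equally weighted high fat mean, and its spread mixes slide with diet group. Within these slides the differences of the main rises kept their sign: Cfd was 3.98 to 7.16 higher on the high fat arrays of a slide than on its SD array, Cidea 3.21 to 6.63, Cyp2b9 1.38 to 5.66, Cidec 1.20 to 5.15 and Pparg 0.60 to 1.43. Among the falls the same difference was -2.07 to -0.89 for H2-Q1, -2.56 to -1.32 for Tff3, -2.33 to -0.38 for Enho, -4.38 to -0.36 for Asns and -3.66 to -0.40 for Sqle. Only Moxd1 of the 14 genes plotted by slide changed sign on one slide.

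**Figure D4:**
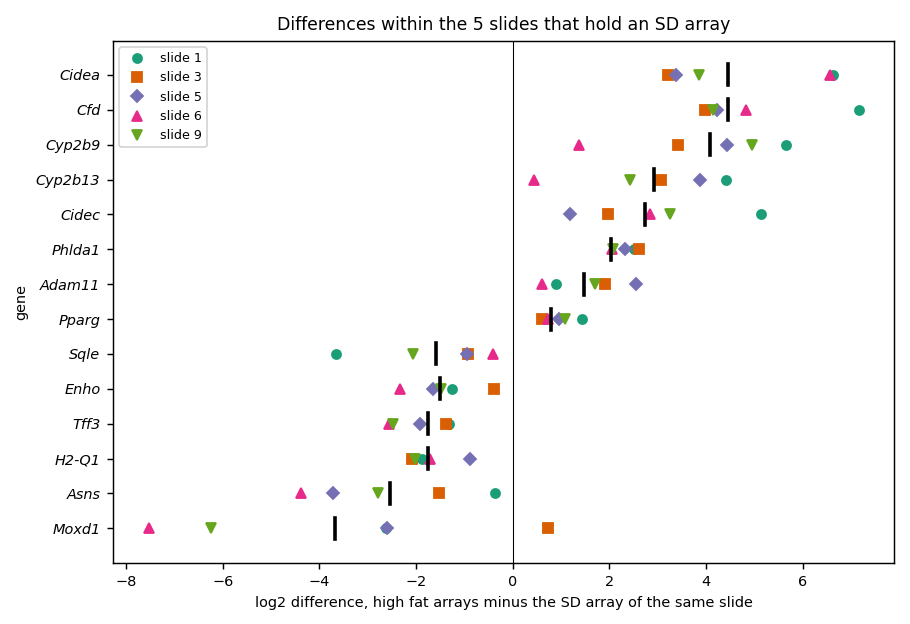
Difference of the high fat arrays of a slide from the SD array on that slide (horizontal axis, log2) for 14 genes, with a symbol for each of slides 1, 3, 5, 6 and 9 and a black bar at the high fat mean minus SD over all arrays. All rises lie right of 0 and all falls left of it on each slide, other than Moxd1 on slide 3, and Phlda1 and Pparg vary least between slides. The 14 genes were chosen from calls made on these same arrays. The diet groups of the high fat arrays differ between slides, so the spread mixes slide with diet group.

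With slide as a block in the fit, 107 genes passed (0.489% of the genes, 61 higher and 46 lower), among them 30 of the 35. Cabyr, Srgap3, Lama3, Atg16l2 and Zfp532 were the 5 that did not. Several metabolic genes passed with the block and not without it, and they are named after their values were seen. Ppargc1a, a coactivator of gluconeogenesis and mitochondrial genes, differed by -0.86 ± 0.24 without the block (adjusted p = 0.184) and by -1.03 with it (adjusted p = 0.022), while a second probe differed by -0.30 without it. For Cish the difference with the block was 2.97 (adjusted p = 0.0068). Urea cycle gene Asl, argininosuccinate lyase, differed by -1.25 ± 0.31 (adjusted p = 0.115) without and passed with the block (adjusted p = 0.026), as did Tat, tyrosine aminotransferase (0.043), Slco1a4 (0.043), the apolipoprotein Apom (0.043), transferrin (Trf, 0.040), Vnn1, a pantetheinase (0.042), and Nudt7, a peroxisomal coenzyme A hydrolase (0.014). Of the ATF4 list, Chac1 passed upward with the block (adjusted p = 0.042) and Trib3 downward (-1.10, adjusted p = 0.023), beside Asns and Slc1a5. With slide as a random block Trib3 (adjusted p = 0.144) and Tat (adjusted p = 0.0624) did not pass.

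**Figure D5:**
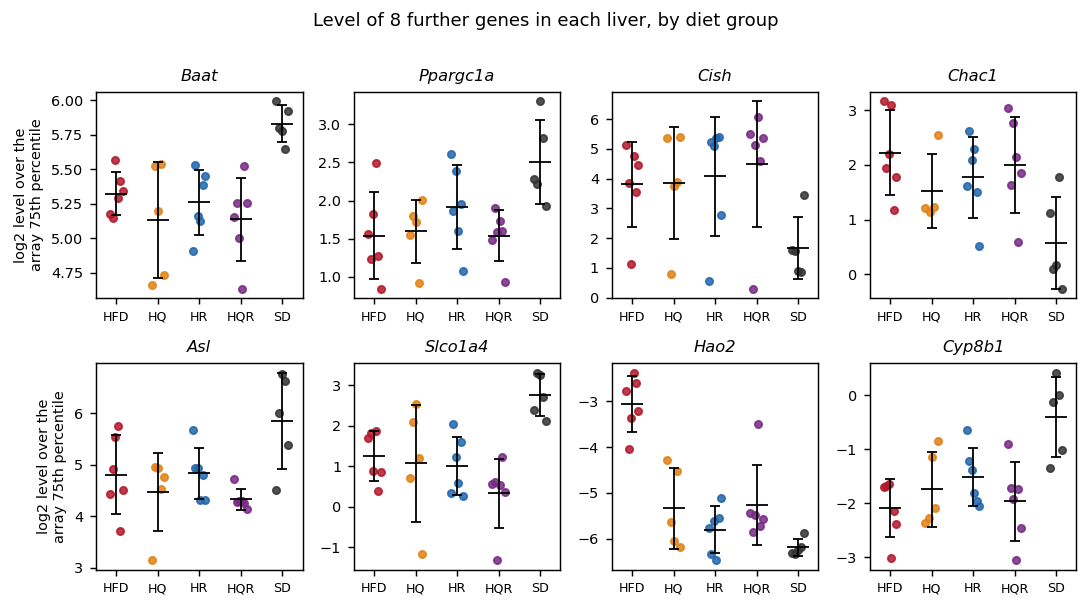
Level of 8 further genes (vertical axes, log2 over the array's 75th percentile) in each liver of HFD, HQ, HR, HQR and SD, with a bar for the group mean and whiskers for 1 SD. Hao2 is highest in HFD, with 1 HQR liver among those levels, Baat is lower in every high fat liver than in every SD liver, and Cish has low livers in each high fat group.

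Single arrays decided part of the 35 calls. Of the 35 genes, 15 passed whichever of the 28 arrays was left out, among them Cidea, Cfd, Cyp2b9, Cyp2b13, Adam11, Asns, Enho, Tff3 and H2-Q1. Another 12 lost the call on leaving out any of 1 to 6 arrays, mostly SD arrays, and 8 on leaving out any of 15 or more: Sytl1, Sqle, Lama3, Zfp532, Phlda1, Srgap3, Fsd1l and Atg16l2.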

How the data were processed

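Liver RNA of 28 mice was measured on 1-colour Agilent whole-genome arrays (45018 spots), 1 liver per array. The deposited values are processed intensities of Agilent Feature Extraction 10.5.1.1, background-subtracted and detrended per the file headers, with probe positions on mm9. A deposited value table holds scores of unstated scale. Each array's scores had a correlation of at least 0.9999 with its log2 processed intensity, and 1 score unit was 2.88 to 3.52 log2 units, so the deposited scores served as an alternative only.

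From the 43379 non-control spots, log2 intensity minus each array's 75th percentile was taken, spots of a probe were averaged, and 32095 of 41174 probes well above background on at least 5 arrays were kept. The brightest probe stood for each of 21862 genes. Probe names came from RefSeq by accession (25097 probes), symbol (6333) or synonym (1640), and otherwise from the array (8104).

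limma 3.58.1 in R 4.3.3 fitted 5 group means over all arrays. All adjusted p-values are limma's, two-sided, with Benjamini-Hochberg adjustment over all genes at 0.05. The tests were the mean of the 4 high fat groups minus SD, an F test among these groups, and the largest p of the 4 comparisons with SD where their signs were the same. The number of arrays limits the precision. Scripts were tested on simulated data. Alternatives covered scaling, background, filters, probes, weights, slide and scan day blocks, and single arrays left out.

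Genes named were the 12 passing genes with the largest differences in each direction, up to 3 called members of each gene list, 10 fixed genes and up to 6 past the F test. All other genes given with values were named after their values were seen. The comparison, lists and genes were chosen with earlier results of these data known. Of 30 livers planned, 2 were left out by the authors for degraded RNA, per the labels. Nothing says that mice of a group were housed apart, so an effect of a shared cage could not be told apart from diet. The p-values treat livers as independent and set a group difference against the spread between livers within groups, which in the main fit also holds slide differences.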

Additional observations from a re-analysis of the deposited data

Results flagged for a closer look

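Of 335 groups examined over 67 genes, 25 had a liver set apart from the others of its group, which is 7.46%, where chance gives about 1 in 20. In HFD livers the level of H2-Q1 was -1.63 in replicate 4, the highest of its group, Rdh16f2 was 4.25 in replicate 3 and Sema5b 0.52 in replicate 4, both the lowest. In HQ livers Chac1 was 2.54 in replicate 5, the highest, and Asl, of the urea cycle, was 3.15 in replicate 1, the lowest. In HR livers replicate 1 was lowest for Phlda1 (4.74) and Cabyr (-2.38) and highest for Tmem210 (0.79). HR replicate 4 was highest for Sqle (-0.93) and lowest for Cyp2b10 (-6.75), and HR replicate 5 was highest for C530014P21Rik (-1.47).

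In HQR livers replicate 3 was highest for Fgf21 (1.46) and Cyp4a14 (8.57) and lowest for Slco1a4 (-1.32). HQR replicate 2 was lowest for Cish (0.30) and Nudt7 (5.41), replicate 4 was highest for Hao2 (-3.50) and lowest for Cbx7 (0.0104), replicate 1 was highest for Asl (4.73) and Cux2 (-3.07), and replicate 5 was lowest for Drc7 (-1.77). In SD livers replicate 1 was lowest for C530014P21Rik (-6.53) and highest for Nudt7 (5.85) and Cbx7 (1.82), and replicate 5 was highest for Cish (3.44).

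For Hao2 the F test among the 4 high fat groups had a limma adjusted p of 0.00579, and the gene was well above background on all 6 HFD arrays, on 1 HQR array and on no HQ, HR or SD array, so that it entered the test only through HFD.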

How the results depend on the processing

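Of the calls with SD, 35 genes passed; the count was 19 with scaling to the array median, 18 with normexp background correction, 22 with HQR left out of the mean and 4 with a minimum fold of 1.5. It was 56 with scan day as a block, 107 with slide as a block, 203 with slide as a random block, 113 with array weights and 115 on the slides that hold an SD array with slide as a block, an alternative chosen, like leaving out slide 8, after seeing the data. Leaving out single arrays gave 19 to 49 genes. The share of calls that were higher was 54.3%, against 65.4% in the deposited table, 63.6% without HQR and 100% with the minimum fold. It was lower in other settings: 43.6% without SD replicate 1, 43.75% with each high fat array weighted equally, 44.4% with normexp and 46.3% with slide as a random block.

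The F test among the high fat groups called 3 genes with normexp, 2 with an intensity trend and robust estimation, 7 with array weights, 9 with slide as a random block and 0 to 3 without single arrays. With the strict filter on dim probes limma called 0 genes, with 400 at an unadjusted p under 0.05. The test of each group against SD at once called 1 gene with normexp, 1 with the intensity trend, 1 with array weights, 4 with slide as a random block and 1 to 3 without single arrays. Without slide 8 limma called 0 genes there, with 25 genes in the mean against SD.

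Replicate numbers did not pair the livers: the 5 same-numbered pairs with SD all correlated over 0.1 in HFD, but 4, 2 and 2 of 5 did in HQ, HR and HQR. A replicate block gave 45 calls, 33 shared with the 35, and 2 calls by the F test.

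Uncalled genes changed sign. Scd1 was -0.0279 with normexp, -0.0903 with slide as a block, -0.0301 with slide as a random block, -0.0746 with scan day, -0.0172 with the replicate block, -0.149 without HFD, -0.0257 without HQ, -0.000616 without slide 8 and -0.0585 on the SD slides, and -0.11 to 0.29 without single arrays. Fasn was 0.0980 with array weights, 0.0364 without HR and -0.43 to 0.13 without single arrays. Cyp4a14 was -0.26 with array weights, -0.19 without HR and -0.42 to 0.60 without single arrays. Cyp2b10 was 0.0194 with normexp. The cause of these changes was not tested.

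With 5 SD livers a single control moved many calls, and genes near background have only imprecise levels.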
